A study of Mus musculus with 52 samples.

Results

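Thrombomodulin (Thbd), the endothelial protein C receptor EPCR (Procr), tissue factor (F3) and tissue factor pathway inhibitor (Tfpi) were followed by RNA sequencing in 2 bone marrow fractions of mice given prostaglandin E receptor agonists before total body irradiation. The 4 genes were taken by symbol from the count tables of both fractions, which list 13566 genes for haematopoietic stem cells and 15168 for stroma, 15743 in all. They were chosen from earlier results of these same libraries, and which comparison chose each of them is not recorded, so the tests given below on them describe the data and are not independent evidence.

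Blood clotting in a vessel starts when tissue factor, a membrane protein, binds factor VII and the complex leads to thrombin. Tissue factor pathway inhibitor blocks that complex. Thrombomodulin on endothelial cells binds thrombin and turns it from a clotting enzyme into an activator of protein C, and EPCR holds protein C at the membrane so that it is activated efficiently. Activated protein C also has effects on cell survival through protease-activated receptors. In mouse marrow EPCR is in addition a widely used surface marker of haematopoietic stem cells.

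In the stroma, mice received the EP3 agonist sulprostone, the EP4 agonist rivenprost, sulprostone and rivenprost together, misoprostol, dmPGE2 (the label is read so from the study's title) or vehicle 30 min before total body irradiation at 853 cGy. Further mice received dmPGE2 or vehicle and were not irradiated. The stem cell fraction has the sulprostone, rivenprost, combined, misoprostol and vehicle groups, all irradiated. Marrow was taken 1 h after irradiation, and every one of the 13 groups has 4 mice, 2 of each sex. Stem cells were sorted as SLAM-LKS cells, and stroma was the CD45- Ter119- fraction after magnetic enrichment. The sources used here give no strain, age, route of injection or dose, so differences between compounds are differences between the doses given.

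The 20 stem cell libraries held 27376014 to 49173110 counts and the 32 stroma libraries 38031184 to 73695537. Libraries were made by different kits from 1 ng of RNA for stem cells and 100 ng for stroma, so no level was tested across the fractions. All 15 stem cell markers, Procr among them, were in the stem cell table, and all 15 were in the stroma table too. All 20 endothelial markers were in the stroma table and none of them was at 0 in any stroma library. The stem cell table held 17 of these 20, so presence in a table does not separate the fractions. The stroma libraries also held granulocyte markers, at a summed 926 to 12780.5 CPM (counts scaled to one size of library), so the fraction was not free of blood cells. The female non-irradiated vehicle and dmPGE2 mice whose numbers stand apart in the titles had the lowest median correlations with the other stroma libraries (0.942 and 0.946). The first of these has few counts of Xist, at 161, where the other female stroma libraries have at least 5524. It also has 0 counts of Ddx3y, a Y chromosome gene, where male stroma libraries have at least 3286. In the stem cells, a male sulprostone, a female misoprostol and a female vehicle library had the lowest correlations (0.832, 0.843 and 0.849). A male misoprostol library came next at 0.854, so no clear gap marks the first 3, which the fits below leave out. The male sulprostone one also held blood cell markers, at a summed 13074 CPM for granulocytes, 5685 CPM for monocytes and macrophages and 5984 CPM for erythroid cells, against 163 to 753, 639 to 1110.3 and 158 to 617 CPM in the other 19 stem cell libraries. Its stem cell markers summed to 1634 CPM, against 2292 to 3111 CPM in the others. The part of these cells in the stem cell results was not tested, and fits without the libraries that stand apart are given below beside the comparisons with vehicle that hold them.

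On the mouse genome build mm10, Thbd lies on chromosome 2 at 148404471 to 148408188, minus strand, as a gene of 1 exon of 3718 bases. Procr lies on chromosome 2 at 155751217 to 155755478, plus strand, with 1504 exonic bases. F3 lies on chromosome 3 at 121723537 to 121735052, plus strand, with 1876 exonic bases. Tfpi lies on chromosome 2 at 84432860 to 84476775, minus strand, with 3780 exonic bases. The 250 bases before the gene start were read from RefSeq on GRCm38.p6 for Procr, F3 and Tfpi, and are shown so that the letters of regulatory motifs can be compared between the members. Capitals mark matches to the AP-1 letters TGANTCA and to the short cyclic AMP response element (CRE) letters TGACG, on either strand.
Procr chr2:155750967-155751216 plus strand: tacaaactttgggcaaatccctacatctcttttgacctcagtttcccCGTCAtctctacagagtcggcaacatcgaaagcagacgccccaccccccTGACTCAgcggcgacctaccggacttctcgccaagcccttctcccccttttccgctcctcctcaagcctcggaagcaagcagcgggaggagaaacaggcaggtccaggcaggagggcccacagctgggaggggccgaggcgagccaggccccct
F3 chr3:121723287-121723536 plus strand: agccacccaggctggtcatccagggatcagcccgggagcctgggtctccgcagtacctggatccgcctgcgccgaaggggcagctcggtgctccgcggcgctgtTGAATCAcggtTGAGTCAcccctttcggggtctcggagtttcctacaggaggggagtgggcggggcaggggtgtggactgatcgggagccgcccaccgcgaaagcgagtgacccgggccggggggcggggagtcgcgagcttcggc
Tfpi chr2:84476760-84477009 minus strand: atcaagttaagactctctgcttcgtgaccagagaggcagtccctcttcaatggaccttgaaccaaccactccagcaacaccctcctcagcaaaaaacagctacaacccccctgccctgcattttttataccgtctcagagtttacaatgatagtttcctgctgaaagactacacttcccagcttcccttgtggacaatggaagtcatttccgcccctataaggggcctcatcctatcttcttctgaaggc

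The F3 window holds 2 matches to the AP-1 letters, the first beginning 146 bases before the gene start. The Procr window holds 1 AP-1 match 154 bases and 1 short CRE match 203 bases before the start. The Tfpi window holds neither. Of the 32851 RefSeq windows of 300 bases (250 before and 50 after a gene start), 7.81% hold TGANTCA and 20.8% hold TGACG, so the letters are common. The full CRE letters TGACGTCA, which contain the short ones, stand in 1.79% of windows and the EGR letters GCGNGGGCG in 5.55%. Neither is in the windows of Procr, F3 or Tfpi. The Kruppel-like factor core CACCC stands in 57.5% of windows and in those of Procr, F3 and Tfpi. These are letter matches only, and they say nothing of binding.

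Thbd transcript rose in marrow stroma under rivenprost, under the combination, under misoprostol and under dmPGE2, and dmPGE2 raised it with and without irradiation. No other member passed the test in any stroma comparison, and no member passed it in stem cells. A gene counts as having passed, or as called, where edgeR's quasi-likelihood test gave a Benjamini-Hochberg adjusted p below 0.05 over all genes of its table. Each fraction was fitted at once with sex as a term. Log2 fold changes are from these fits, with 95% confidence intervals in brackets.

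Under rivenprost, Thbd stood at 226 and 372 CPM in females and at 1567 and 1966 CPM in males, against 46.4 and 79.1 CPM in vehicle females and 82.96 and 53.2 CPM in vehicle males. Every rivenprost library was above every vehicle library. The means were 1033 ± 865 CPM under rivenprost and 65.4 ± 18.3 CPM under vehicle (SD, n = 4 each). The difference was 3.65 on the log2 scale [2.56, 4.74], with SE 0.53 and an adjusted p of 0.000524 by edgeR. Of all stroma genes, 1.13% were called in this comparison, and Thbd was the only member among them. Fitted with the rivenprost and vehicle libraries alone, the log2 fold change was 3.47 and Thbd was not called (adjusted p = 0.092).

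With sulprostone and rivenprost together, Thbd stood at 459 and 307 CPM in females and at 491 and 1694 CPM in males. All 4 were above the vehicle libraries, and 1 male was far above the other 3. The combined group averaged 738 ± 643 CPM and the vehicle group 65.4 ± 18.3 CPM (SD, n = 4 each), a log2 fold change of 3.29 [2.22, 4.35] (adjusted p = 0.000683, edgeR). In this comparison 3.09% of stroma genes were called.

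Misoprostol, a prostaglandin E1 analog, gave 482 and 292 CPM of Thbd in females and 1094 and 620 CPM in males. Again no treated library reached down to the vehicle range. The log2 fold change over vehicle was 3.09 [2.04, 4.14] (adjusted p = 0.00229, edgeR), where 0.916% of genes were called.

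dmPGE2, a long-acting form of prostaglandin E2, gave 410 and 193 CPM in irradiated females and 954 and 282 CPM in irradiated males. The lowest of these was still above the highest vehicle library, at 82.96 CPM. The log2 fold change was 2.67 [1.64, 3.70] (adjusted p = 0.00398, edgeR), and 1.98% of genes were called.

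Without irradiation, dmPGE2 gave 505 and 400 CPM in females and 651 and 639 CPM in males, against 69.1 and 105 CPM in females and 91.4 and 104 CPM in males given vehicle. These 4 treated libraries lay close together and none overlapped with its controls. The log2 fold change was 2.51 [1.49, 3.54] (adjusted p = 0.0037, edgeR), with 3.76% of genes called. Without the pair of female libraries of the apart mouse numbers it was 2.80 (adjusted p = 0.012, edgeR).

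Sulprostone gave 183 and 349 CPM of Thbd in females and 176 and 458 CPM in males. All 4 libraries were above the 4 vehicle libraries, yet the test over all genes was not passed. The means were 292 ± 136.99 CPM under sulprostone and 65.4 ± 18.3 CPM under vehicle (SD, n = 4 each), and the log2 fold change was 2.14 [1.13, 3.14], with an unadjusted p of 0.000186 and an adjusted p of 0.129 by edgeR. In this comparison 0.105% of all genes were called by edgeR. DESeq2 put Thbd past the threshold here, with a log2 fold change of 2.12 and an adjusted p of 0.0028.

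**Figure D1:**
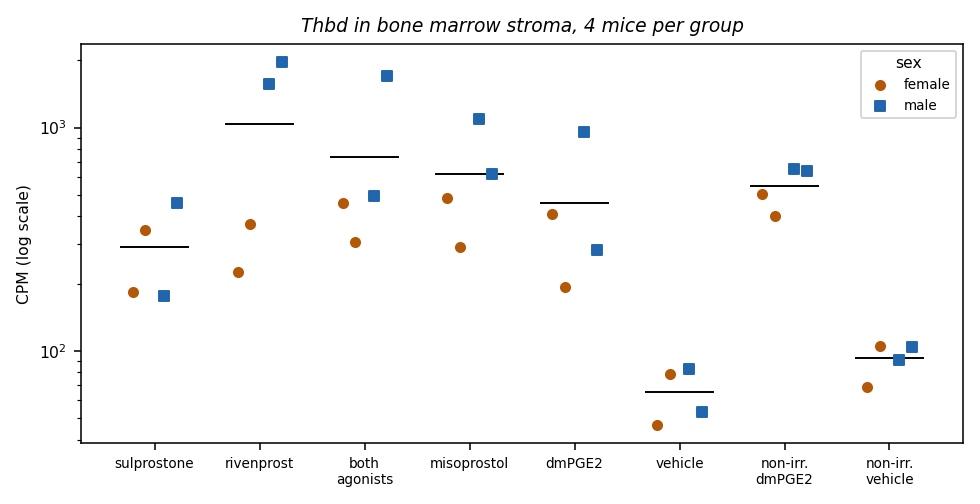
Thbd level (CPM, log scale) in each of the 32 stroma libraries, by group and sex. Points are mice and horizontal lines are group means. Every treated library, from 176 CPM upward, sits above every vehicle and non-irradiated vehicle library, of which the highest has 105 CPM.

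Irradiation by itself left no called difference in Thbd. The level was 65.4 ± 18.3 CPM in irradiated and 92.5 ± 16.8 CPM in non-irradiated vehicle mice (SD, n = 4 each), a log2 difference of -0.49 [-1.46, 0.48] (adjusted p = 0.827, edgeR), while 0.771% of genes were called. Between irradiated and non-irradiated dmPGE2 mice the difference was -0.34 [-1.30, 0.63] (adjusted p = 0.818, edgeR), with 0.0461% of genes called. The response to dmPGE2 in irradiated mice minus that in non-irradiated mice was 0.16 on the log2 scale [-1.21, 1.53] (adjusted p = 1, edgeR), in a test that called 0.0264% of genes. The interval is wide on both sides of 0. Without the pair of female libraries of the apart mouse numbers, the log2 difference in Thbd was -0.19 for irradiation and -0.37 between the dmPGE2 groups, and the interaction was -0.18, none of them called.

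The authors' deposited table gives the same order of Thbd responses, with log2 fold changes of 3.98 for the EP4 agonist, 3.50 for the combination, 3.25 for misoprostol, 2.81 for dmPGE2, 2.57 for dmPGE2 without irradiation and 2.16 for the EP3 agonist. In the authors' deposited table the false discovery rate for the EP3 agonist is 0.0808, and for the other 5 it is at most 0.00121.

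Ordered by mean level, Thbd was highest under rivenprost, then the combination, misoprostol, dmPGE2 without irradiation, dmPGE2 with irradiation, sulprostone, non-irradiated vehicle and irradiated vehicle. Only the steps from sulprostone to non-irradiated vehicle and from non-irradiated to irradiated vehicle reached the larger SD of the neighbouring groups, and the second of these was not called. The response to the combination was below the sum of the separate responses on the log2 scale, by -2.50 [-3.89, -1.11] (unadjusted p = 0.00104, adjusted p = 0.684, edgeR). In that test 0% of genes were called in stroma, 655 had an unadjusted p under 0.05 and DESeq2 called 15. The same test called 0% of genes in stem cells, where 497 had an unadjusted p under 0.05 and DESeq2 called 106.

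Sulprostone, rivenprost and their combination, misoprostol and dmPGE2 were compared in 10 pairs in irradiated stroma. No pair reached the threshold for Thbd. Thbd was higher under rivenprost than under sulprostone by 1.52 [0.51, 2.52] on the log2 scale (adjusted p = 0.277, edgeR; 0.033% of genes called), and under the combination than under sulprostone by 1.15 [0.17, 2.14] (adjusted p = 0.215, edgeR; 1.67% called). These intervals lie above 0, but the values overlap between the groups. Misoprostol minus sulprostone was 0.96 [-0.02, 1.94], with 0.0132% of genes called, and sulprostone minus dmPGE2 was -0.54 [-1.51, 0.44], with 1.28% called.

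The other 6 pairs each called 0% of genes by edgeR, with 96 to 1468 genes at an unadjusted p under 0.05 and 0 to 18 genes called by DESeq2. For Thbd, the combination minus rivenprost was -0.36 [-1.34, 0.61], misoprostol minus rivenprost -0.56 [-1.53, 0.42] and misoprostol minus the combination -0.19 [-1.16, 0.77]. Rivenprost minus dmPGE2 was 0.98 [0.00, 1.96], the combination minus dmPGE2 0.61 [-0.36, 1.59] and misoprostol minus dmPGE2 0.42 [-0.55, 1.39]. Each of these intervals includes differences of about 2-fold in at least one direction, so the compounds were not shown to act alike on Thbd.

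**Figure D2:**
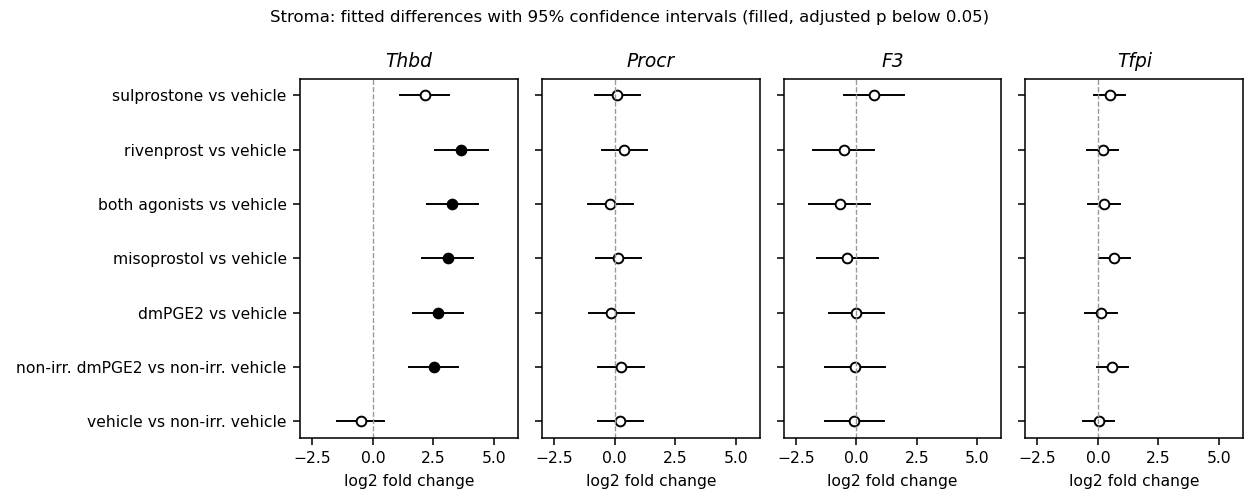
Log2 fold change of each of the 4 genes in stroma with its 95% confidence interval. Rows are each treated group over its own vehicle group, and irradiated over non-irradiated vehicle. The Thbd intervals of the treated groups all lie above 0, with fold changes from 2.14 for sulprostone to 3.65 for rivenprost. That of irradiation alone (-0.49) includes 0, and those of Procr and F3 all include 0.

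In the treated groups, Thbd averaged lower in the stroma of females than of males. Over the 6 treated groups, females had 183 to 505 CPM with a median of 360 (mean 348 ± 110, SD, n = 12) and males 176 to 1966 CPM with a median of 645 (mean 883 ± 582, SD, n = 12). These SDs also hold the differences between the treatments. The male mean was higher in 6 of the 6 treated groups, and both males were above both females in 4 of them. In the vehicle groups, females had 46.4 to 105 CPM (74.99 ± 24.4, SD, n = 4) and males 53.2 to 104 CPM (82.95 ± 21.7, SD, n = 4), which overlap.

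Over all stroma libraries, the female minus male difference in Thbd was -0.90 [-1.40, -0.40] on the log2 scale (adjusted p = 0.0415, edgeR), in a comparison that called 2.87% of genes. That call depended on single libraries, and leaving out any of 18 of the 32 moved the adjusted p above 0.05, up to 0.0831, with log2 differences of -0.98 to -0.77. Without the pair of the apart mouse numbers it was -0.99 (adjusted p = 0.0395, edgeR). The mouse numbers run in a few consecutive sets, each of a single sex, so a difference between sexes and between sets cannot be told apart. These tests treat the mice of a number set as independent of each other. A model with a term for each sex in each group, added after the values were seen, tested the response itself. The mean response over the 6 treatments was 2.37 in females and 3.41 in males, a difference of -1.05 [-2.23, 0.14] (unadjusted p = 0.0804, adjusted p = 1, edgeR). This test called 0% of genes, with 148 at an unadjusted p under 0.05, and DESeq2 was not run on it. The widest gap was under rivenprost, at 2.25 in females and 4.70 in males (difference -2.45 [-4.23, -0.66], unadjusted p = 0.00993, adjusted p = 1, edgeR). With 2 mice of each sex in a group, the difference in response did not pass the threshold.

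Thbd is an endothelial gene in most tissues, and in bulk RNA a change in the number of cells of a type and a change in RNA per cell cannot be told apart. The summed level of the 20 endothelial markers overlapped between treated and vehicle groups throughout. It ranged over 1088 to 1533 CPM under sulprostone, 667 to 1830 CPM under rivenprost, 708 to 1275 CPM under the combination, 1045 to 1637 CPM under misoprostol and 615 to 1259.98 CPM under dmPGE2, against 890 to 1193 CPM under vehicle. In non-irradiated mice it was 932 to 1301 CPM under dmPGE2, against 749 to 1314 CPM under vehicle.

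Divided by that sum, Thbd was 0.153 to 1.91 in the irradiated treated libraries, against 0.0401 to 0.0932 in the irradiated vehicle libraries. In the non-irradiated mice it was 0.388 to 0.686 under dmPGE2, against 0.0793 to 0.108 under vehicle. Vwf and Tek of this list are also on the marker lists of megakaryocytes or stem cells. Over the 18 markers on no other cell type's list, the ratio was 0.194 to 3.05 in the irradiated treated libraries, against 0.0671 to 0.132 in the irradiated vehicle libraries, and 0.429 to 0.867 under dmPGE2 without irradiation, against 0.123 to 0.152 under its vehicle. In both ratios the treated and vehicle libraries did not overlap. Some of the 18 markers were also abundant in the sorted stem cells. Esam, Egfl7, Eng and Tie1 were counted in every stem cell library, each with a mean CPM above that of Procr. Neither sum is thus a measure of endothelium alone, and how much of it came from other cells was not tested. Of the single endothelial markers, Cldn5, a tight junction protein, rose with misoprostol (log2 fold change 2.06, adjusted p = 0.0294), with dmPGE2 (1.79, adjusted p = 0.0424) and with dmPGE2 without irradiation (1.80, adjusted p = 0.028), all by edgeR. Sox18, an endothelial transcription factor, fell with the combination (-1.95, adjusted p = 0.0299), with dmPGE2 (-2.37, adjusted p = 0.0111) and with dmPGE2 without irradiation (-2.35, adjusted p = 0.00671), also by edgeR. The other 18 markers were not called in a comparison with vehicle.

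Of 12 marker lists compared in the 6 treated stroma groups, 5 of 72 sums did not overlap with the vehicle group. How often groups fail to overlap without a difference was not computed, for these lists or over all genes. The irradiated treated groups share the same vehicle libraries, so their sums are not separate results. Monocyte and macrophage markers were lower under sulprostone (1630 to 2237 CPM), rivenprost (1673 to 2110 CPM) and the combination (865 to 2150 CPM), against 2450 to 2970 CPM under vehicle. Pericyte and smooth muscle markers were higher under sulprostone, at 225 to 367 CPM against 151 to 193 CPM under vehicle. Stem cell markers were higher under the combination, at 467 to 572 CPM against 342 to 454 CPM under vehicle. Thbd was higher in each of these groups, while the monocyte sum was lower in 3 of them. The part of these other cells in the Thbd values was not tested.

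**Figure D3:**
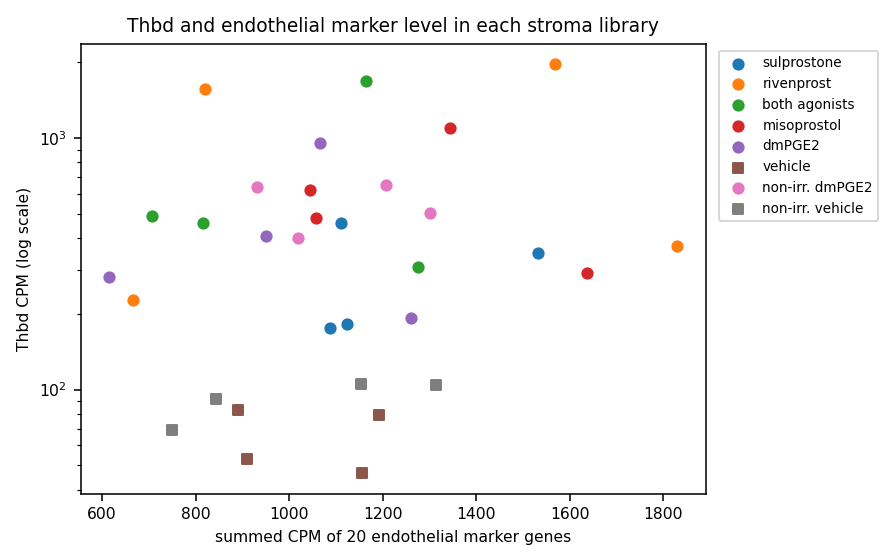
Thbd level (CPM, log scale) against the summed CPM of 20 endothelial marker genes in each of the 32 stroma libraries, coloured by group. Vehicle libraries lie at 46.4 to 105 CPM of Thbd over much of the marker range, and treated libraries lie above them at 176 to 1966 CPM.

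Tfpi, the inhibitor of the tissue factor complex, was the next most abundant member by its mean over all stroma libraries, and no comparison called it. It had 142.5 and 156 CPM in misoprostol females and 153 and 88.8 CPM in misoprostol males, against 82.9 and 112.7 CPM in vehicle females and 65.7 and 78.9 CPM in vehicle males. Misoprostol values ran higher but overlapped with vehicle, and the log2 fold change of 0.67 [0.03, 1.32] had an unadjusted p of 0.0409 and an adjusted p of 0.418 (edgeR). Under sulprostone it had 96.8 and 123.9 CPM in females and 93.3 and 152 CPM in males, a log2 fold change of 0.48 [-0.16, 1.13].

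Without irradiation, dmPGE2 mice had 186 and 132.9 CPM of Tfpi in females and 86.9 and 102 CPM in males, against 73.7 and 112.6 CPM in females and 55.3 and 92.3 CPM in males given vehicle. The groups overlap, with a log2 fold change of 0.58 [-0.06, 1.23] (adjusted p = 0.361, edgeR). Rivenprost (46.1 to 159 CPM), the combination (46.1 to 132.2 CPM) and irradiated dmPGE2 (63.6 to 110 CPM) also overlapped with vehicle, with log2 fold changes of 0.20, 0.25 and 0.12.

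Procr, the EPCR gene, was low in the stroma, at 0.846 to 6.07 CPM over the 32 libraries (51 to 354 counts). Its group means ran from 3.71 ± 1.76 CPM under rivenprost to 2.45 ± 0.424 CPM in non-irradiated vehicle mice (SD, n = 4 each), with every neighbouring pair within its spread. Rivenprost libraries had 2.10 and 2.66 CPM in females and 6.07 and 4.01 CPM in males, against 1.89 and 3.85 CPM in vehicle females and 3.54 and 2.22 CPM in vehicle males. The groups overlap, and the log2 fold change was 0.40 [-0.54, 1.34] (adjusted p = 0.854, edgeR). Over the 6 treated groups the log2 fold changes of Procr were -0.18 to 0.40 and no comparison called it, so the higher thrombomodulin transcript was not accompanied by a called change in its partner receptor.

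F3, which encodes the initiator of clotting, was close to the limit of detection in stroma, at 5 to 61 counts and 0.0866 to 1.38 CPM. Sulprostone gave 0.499 and 1.12 CPM in females and 1.38 and 0.127 CPM in males, against 1.04 and 0.381 CPM in vehicle females and 0.311 and 0.254 CPM in vehicle males. These ranges overlap, and the log2 fold change was 0.73 [-0.50, 1.97]. The combination minus sulprostone was -1.41 [-2.68, -0.15] (unadjusted p = 0.0294, adjusted p = 0.233, edgeR), and rivenprost minus sulprostone was -1.26 (unadjusted p = 0.0493, adjusted p = 0.584, edgeR). The other stroma comparisons of F3 had an unadjusted p above 0.05.

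**Figure D4:**
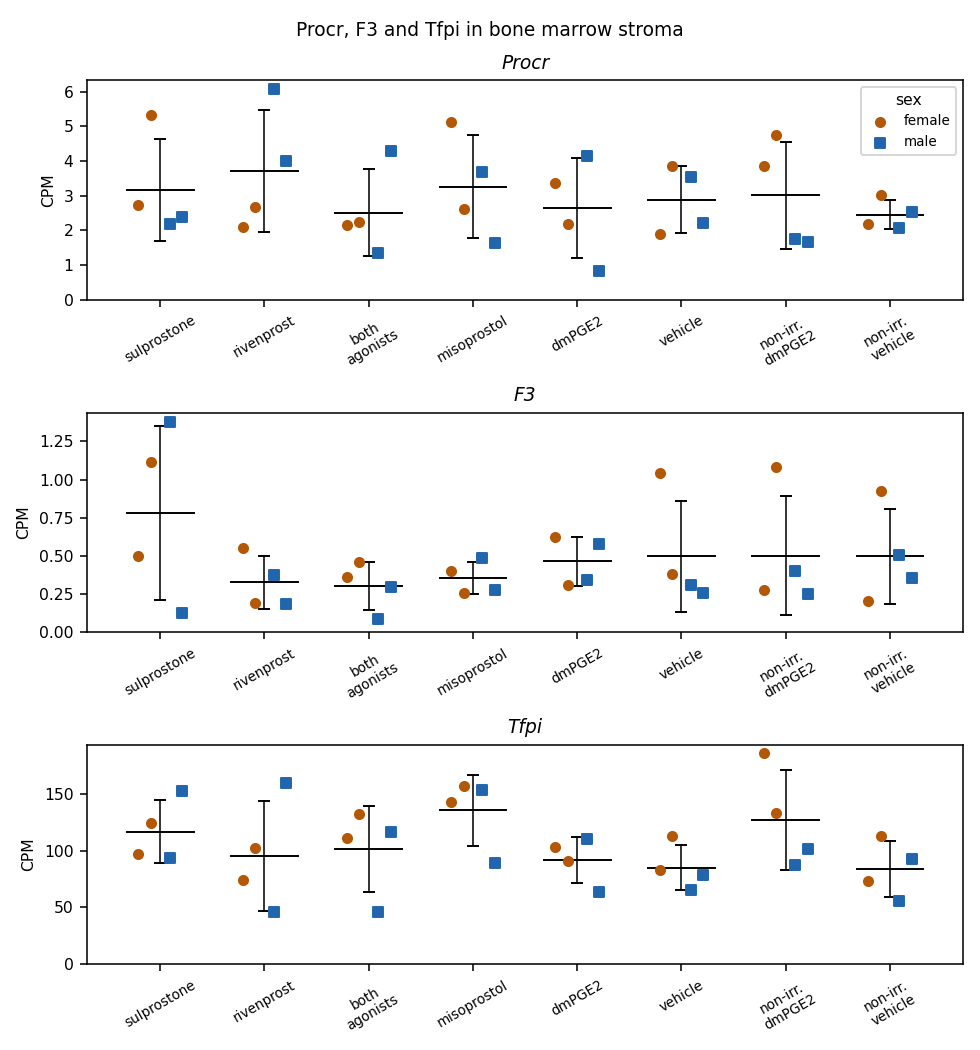
Levels of Procr, F3 and Tfpi (CPM, linear axes) in each stroma library by group and sex; lines are group means and bars the SD. Treated and vehicle libraries overlap for all 3 genes in every group, with Tfpi near 100 CPM, Procr near 3 CPM and F3 below 1.5 CPM.

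Per kilobase of exon, the order of the members differed between the fractions, each normalised separately. In stroma the mean level was 129.4 CPM per kilobase for Thbd, 27.6 for Tfpi, 1.96 for Procr and 0.248 for F3. In stem cells it was 66.7 CPM per kilobase for Procr, 13.2 for Tfpi, 2.44 for Thbd and 1.60 for F3. Over all libraries, treated ones included, Procr was thus the most abundant member in the sorted stem cells and Thbd in the stroma. In irradiated vehicle stroma Thbd had 17.6 and Tfpi 22.5 CPM per kilobase, and in non-irradiated vehicle stroma 24.9 and 22.1. The vehicle groups alone thus do not set Thbd above Tfpi.

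In stem cells, 0 of the 4 members were called in any of the 12 comparisons by edgeR or by DESeq2. At an unadjusted p under 0.05, edgeR listed F3 in rivenprost against sulprostone and in the combination against sulprostone, and both Procr and F3 in females against males. The share of all stem cell genes called was 0.0147% for sulprostone, 0.494% for rivenprost, 0.545% for the combination and 0.251% for misoprostol against vehicle. Between compounds it was 0.332% for rivenprost against sulprostone, 0.243% for the combination against sulprostone and 0.0369% for misoprostol against sulprostone. The other 3 stem cell pairs (the combination against rivenprost, misoprostol against rivenprost and misoprostol against the combination) called 0%, with 372 to 519 genes at an unadjusted p under 0.05 and 0.464% to 0.877% of genes called by DESeq2. Females against males called 0.0663%.

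F3 in stem cells was the member whose detection varied most. Under rivenprost it had 6.10 and 3.45 CPM in females and 2.35 and 9.81 CPM in males, and with the combination 1.61 and 2.56 CPM in females and 13.7 and 9.94 CPM in males. Under vehicle it was listed at 0 in both females and in 1 male and at 3.13 CPM in the other male. All 8 libraries given rivenprost, with or without sulprostone, held F3 counts, from 65 to 503.

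Sulprostone alone left F3 at 0 in both females and 1 male, with 2.07 CPM in the other male. Misoprostol gave 0 and 1.25 CPM in females and 0 and 4.10 CPM in males. F3 was therefore counted in 12 of 20 stem cell libraries.

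The log2 fold change of F3 over vehicle was 4.97 [-0.10, 10.04] under rivenprost (unadjusted p = 0.0542, adjusted p = 0.797, edgeR) and 4.25 [-0.44, 8.94] with the combination (unadjusted p = 0.0731, adjusted p = 0.778, edgeR). Neither passed the test, and the single vehicle male with counts lies inside the rivenprost range. Rivenprost and sulprostone libraries did not overlap (log2 difference 5.50 [0.36, 10.63], unadjusted p = 0.0371, adjusted p = 0.753, edgeR). These fitted values hang on libraries with no counts and on the model: the authors' deposited table gives 2.79 for the EP4 agonist and 3.15 for the combination. Without the 3 libraries that stand apart, the edgeR values were 4.10 under rivenprost, 3.56 with the combination and 4.57 for rivenprost minus sulprostone, again not called.

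Procr was well measured in stem cells, at 57.5 to 155 CPM (1996 to 6398 counts). Rivenprost libraries had 95.1 and 92.7 CPM in females and 88.6 and 155 CPM in males, the combination 94.3 and 75.9 CPM in females and 148 and 115.4 CPM in males, and vehicle libraries 57.5 and 72.2 CPM in females and 119.3 and 104 CPM in males. Sulprostone libraries had 70.3 and 70.1 CPM in females and 95.2 and 146 CPM in males. Treated and vehicle groups overlap, and the lowest value of all was that of a vehicle female. The log2 fold changes over vehicle were 0.32 [-0.15, 0.80] under rivenprost, 0.31 [-0.17, 0.78] with the combination, 0.28 [-0.20, 0.76] under misoprostol and 0.11 [-0.36, 0.59] under sulprostone. The 4 upper bounds lie below a log2 fold change of 1. Without the 3 libraries that stand apart the values were 0.25 under rivenprost, 0.24 with the combination, -0.02 under misoprostol and 0.10 under sulprostone, none called. Females had 83.9 ± 18.7 CPM and males 116.6 ± 26.1 CPM (SD, n = 10 each), a log2 difference of -0.49 [-0.80, -0.19] (unadjusted p = 0.00291, adjusted p = 0.842, edgeR).

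Thbd was low and variable in stem cells, with 1 count in a sulprostone male and in a misoprostol female, and at most 29.7 CPM, in a female given the combination. With the combination it had 11.1 and 29.7 CPM in females and 9.35 and 9.68 CPM in males, under rivenprost 1.71 and 7.18 CPM in females and 3.18 and 9.16 CPM in males, and under vehicle 9.31 and 2.35 CPM in females and 15.6 and 7.24 CPM in males. The combination and rivenprost libraries did not overlap, but the log2 difference was 1.47 [-1.03, 3.97]. The share of all stem cell genes without overlap was not computed, for this pair or for rivenprost against sulprostone. Over vehicle, the log2 fold changes of Thbd were 0.76 with the combination, 0.14 under misoprostol, -0.34 under sulprostone and -0.71 under rivenprost, each with an interval on both sides of 0. Without the 3 libraries that stand apart they were 0.83, 0.58, 0.14 and -0.66 in the same order, so the sign under sulprostone turned. The Thbd response to rivenprost was thus called in stroma and not in stem cells, but the difference between the fractions was not tested.

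Tfpi in stem cells had 19.5 to 87.2 CPM over the 20 libraries. The log2 fold changes over vehicle were 0.22 under sulprostone, 0.32 under rivenprost, 0.31 with the combination and 0.15 under misoprostol. The widest interval was that of misoprostol, from -0.59 to 0.90. Without the 3 libraries that stand apart, the values were 0.22, 0.31, 0.32 and 0.45 in that order.

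**Figure D5:**
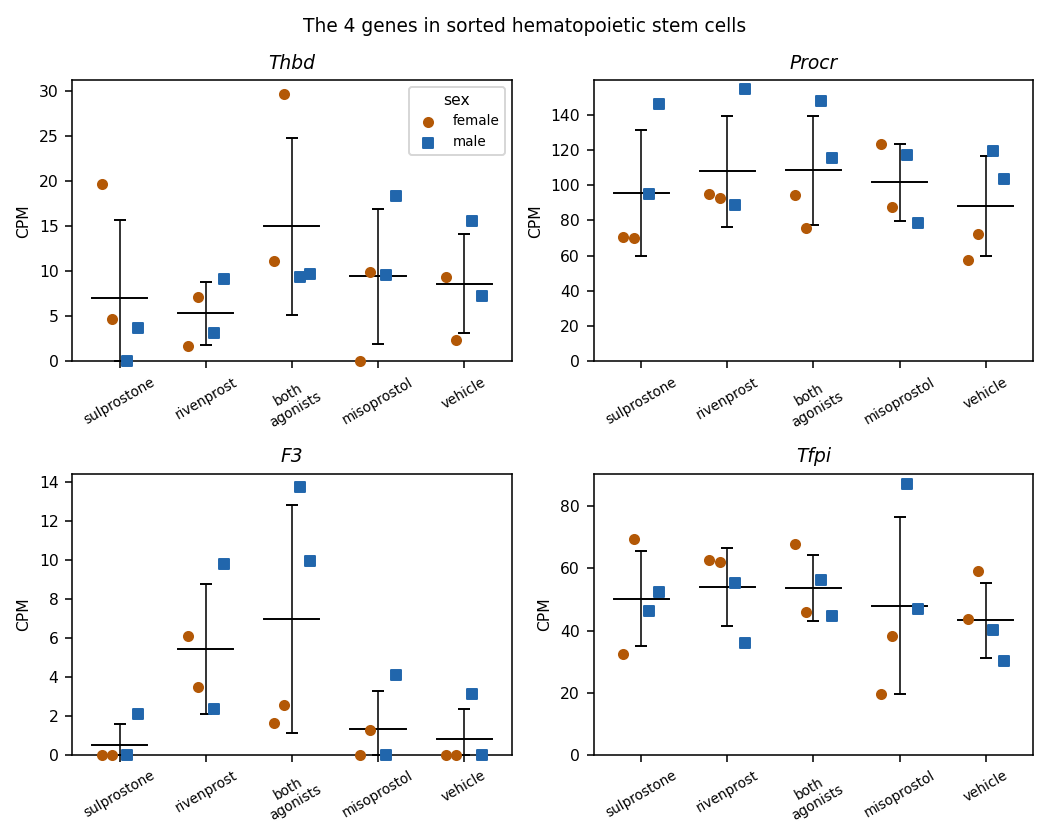
Levels of the 4 genes (CPM, linear axes) in each of the 20 stem cell libraries by group and sex; lines are group means and bars the SD, drawn down to 0 at most. F3 is above 0 in all 8 libraries given rivenprost and in 4 of the other 12, while Procr, Tfpi and Thbd overlap with vehicle in all treated groups.

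Genes of the clotting pathway were counted in 5 lists. Tissue factor and clotting factors had 7 of 18 genes in the stem cell table and 10 of 18 in the stroma table, anticoagulants 12 and 9 of 15, thrombin receptors with platelet glycoproteins 7 and 8 of 8, fibrinolysis regulators 5 and 10 of 11, and other antithrombotic endothelial genes 6 and 8 of 8. F7, the partner of tissue factor, and Proc, the protein C gene, were in neither table. In the anticoagulant list Thbd was the only gene called against a vehicle group, and in the clotting factor, thrombin receptor and antithrombotic lists edgeR called 0 genes in the 4 stem cell and 7 stroma comparisons with a vehicle group. At an unadjusted p under 0.05 these 3 lists gave 5, 1 and 2 gene results in stem cells and 1, 5 and 3 in stroma. DESeq2 called F13a1, the factor XIII A chain, under sulprostone in stem cells (adjusted p = 7.86e-05, against 1 by edgeR), where it had 8.06 and 4.39 CPM in females and 34.1 and 0.214 CPM in males, against at most 0.0478 CPM in vehicle libraries. The male with 34.1 CPM is the library with the blood cell markers. DESeq2 also called F2r, the thrombin receptor PAR1, with the combination in stroma (log2 fold change 0.90, adjusted p = 0.0198, against 0.0508 by edgeR).

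In the fibrinolysis list, Plaur, the urokinase receptor gene, rose in stem cells, to 211 ± 64.6 CPM under rivenprost, 277 ± 59.7 CPM with the combination and 127.98 ± 52.8 CPM under misoprostol, against 19.1 ± 5.93 CPM under vehicle (SD, n = 4 each). The log2 fold changes were 3.51 (adjusted p = 4.45e-06), 3.87 (adjusted p = 1.5e-06) and 2.70 (adjusted p = 0.000146), all by edgeR. In stroma Plaur was called with dmPGE2 in non-irradiated mice, at 53.9 ± 31.1 CPM against 15.3 ± 3.70 CPM under vehicle (log2 fold change 1.84, adjusted p = 0.00628, edgeR). No list gene was called between irradiated and non-irradiated vehicle mice.

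The list medians were mostly small beside the changes of Plaur. In stroma the median log2 fold change of the anticoagulant list was 0.40 under rivenprost and -0.26 under dmPGE2, where the medians of all genes were 0.04 and 0.02. Per list, the genes of highest mean level in stroma were Vwf (289 CPM, von Willebrand factor), Serpine2 (670 CPM, protease nexin-1), Gp5 (79.9 CPM, a platelet glycoprotein), Thbs1 (965 CPM, thrombospondin-1) and Klf4 (34.0 CPM, a transcription factor). In stem cells they were Vwf (75.1 CPM), Anxa5 (348 CPM, the phospholipid-binding annexin A5), F2r (211 CPM), S100a10 (216 CPM, a plasminogen receptor subunit) and Tek (39.2 CPM, the receptor TIE2).

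The genes most like each member across the libraries of a fraction were found by Pearson's r of log2 CPM among genes with a mean of at least 5 CPM. In the 32 stroma libraries, over 10799 genes, genes like Thbd were Vdr (the vitamin D receptor, r = 0.96) and Aldh3a1 (an aldehyde dehydrogenase, r = 0.96). Vdr averaged 809 CPM under rivenprost and 62.0 CPM under vehicle.

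Tfpi was most like Gpm6a (0.97), Adgrg6 (0.96) and Flt4 (0.96), the last a receptor of lymphatic and sinusoidal endothelium. Procr was most like the basement membrane collagen genes Col4a2 (0.83), Col4a1 (0.83) and Col18a1 (0.82). F3, low in stroma, reached only 0.64 with Msantd3, 0.61 with Anxa2 and 0.60 with Fam20c.

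In the 20 stem cell libraries, over 10252 genes, F3 was most like Adamts1 (a secreted metalloprotease, 0.84), Maoa (monoamine oxidase A, 0.81) and Ndrg1 (0.80). Adamts1 averaged 23.2 CPM under rivenprost, 14.1 CPM with the combination and 0.633 CPM under vehicle. Procr was most like Socs2 (a cytokine signalling suppressor, 0.86), Fnbp1l (0.82) and Coa7 (0.76), Thbd most like E130307A14Rik (0.88), Zcchc18 (0.86) and Kbtbd11 (0.86), and Tfpi most like Tbp (0.80), Dda1 (0.77) and 1110059E24Rik (0.77). The libraries of a fraction share treatments, sex and depth, so these coefficients are descriptions with no p.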

How the data were processed

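RNA was sequenced from 20 stem cell and 32 stroma libraries. The authors deposited a table per fraction with raw read counts per gene, made with STAR 2.5 and featureCounts from Subread 1.5.1 on mm10, with read quality checked in FastQC 0.11.5, per the submitters' processing notes. The deposited tables also give the authors' own log2 fold changes and p-values with false discovery rates, for which those notes name edgeR 3.36.0. The authors' 52 log2 CPM columns were not used. The sources used here do not say whether counting used strand.

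CPM were computed here from the deposited counts with TMM scaling. Counts were fitted in edgeR 4.0.16 (R 4.3.3, limma 3.58.1) by robust quasi-likelihood, 1 fit per fraction with terms for group and sex. Genes passed at a Benjamini-Hochberg adjusted p below 0.05 over the whole table. DESeq2 1.42.0 was an alternative, and the closing text gives the others. The members, gene lists and alternatives were chosen with earlier results of these data known. Named genes were the 4 members in every comparison, list genes past the test or of highest mean level, and the 3 genes most like each member. Some genes that this rule names are not reported here. Depth was 27376014 to 73695537 counts per library. Sequences came from RefSeq (3 of the 4 members matched). P-values measure the spread between mice, and nothing says whether mice shared a litter or cage.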

Additional observations from a re-analysis of the deposited data

Results flagged for a closer look

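Among 52 sets of 4 libraries (4 genes in 13 groups), 7 held a library far from the other 3 by Dixon's test. Chance flags about 1 in 20 sets of normally distributed values, and whether these CPM are so distributed was not tested. For Thbd these were a female stem cell library given the combination of agonists, at 29.7 CPM, and a male stroma library given the combination, at 1694 CPM. For Procr they were a male rivenprost stem cell library at 155 CPM and a female sulprostone stroma library at 5.34 CPM. For F3 they were the male vehicle stem cell library at 3.13 CPM, the male sulprostone stem cell library at 2.07 CPM, each the only one of its group with counts, and a female vehicle stroma library at 1.04 CPM. In both of those stem cell groups the other 3 libraries were at 0, so any value above 0 would be flagged.

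In 6 cases every library of one kind lay on one side of its vehicle mean and every library of the other kind on the other side. How often this happens without a difference was not computed, for the members or over all genes. With 2 mice of each sex in a group it is easily met, so these cases do not show opposite responses. Thbd in stem cells given the combination was higher than vehicle by 14.6 CPM in females, and in males the difference was -1.88 CPM. Procr in stroma under rivenprost differed from vehicle by -0.491 CPM in females and 2.16 CPM in males, and under dmPGE2 without irradiation by 1.71 CPM in females and -0.592 CPM in males. F3 in stroma under dmPGE2 differed by -0.243 CPM in females and 0.179 CPM in males. Tfpi in stem cells under misoprostol differed by -22.5 CPM in females and 31.99 CPM in males. With the combination of agonists, F3 differed from vehicle by -0.194 CPM in stroma and 6.18 CPM in stem cells. In stroma the difference between the sexes was tested in the added model and had an adjusted p of 1 in each of the 3 cases (unadjusted p = 0.229, 0.201 and 0.339, edgeR). The differences between the sexes in stem cells, and between the fractions, were not tested.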

How the results depend on the processing

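The counts of members past the test were recomputed with other size factors (RLE or the total count), a minimum mean of 1 CPM, DESeq2, no sex term, the range of the mouse numbers as a further term, sets of mouse numbers as a block, only the groups compared, without libraries that stand apart, and with each library left out. Outside the single-library fits, 273 recomputed counts were as in the report and 2 were not. DESeq2 called 1 member, Thbd, under sulprostone in stroma, and the fit to rivenprost and vehicle libraries alone called 0. Leaving out single libraries changed 18 counts and left 306 as they were, and all 18 were in females against males in stroma, where the count was 0 to 1 and where the libraries that ended the call came from all treated groups and from irradiated vehicle. The cause was not tested. With single libraries left out, the log2 fold change of Thbd in stroma was 3.28 to 3.98 under rivenprost, 2.77 to 3.61 with the combination, 2.88 to 3.42 under misoprostol, 2.32 to 2.996 under dmPGE2 and 2.37 to 2.79 under dmPGE2 without irradiation, each called throughout, and 1.79 to 2.47 under sulprostone, not called (adjusted p 0.0618 to 0.745, edgeR). That of F3 in stem cells was 4.23 to 10.95 under rivenprost and 3.64 to 10.52 with the combination. The highest values came from leaving out the male vehicle library with counts, after which all vehicle libraries were at 0 and the fitted value is no bound. Counts of all genes called moved by more than 1.5 times in 80 other results and did not in 195. The share of all stroma genes called was 0.251% by DESeq2 and 0.105% by edgeR under sulprostone, 2.29% and 1.13% under rivenprost, 5.82% and 3.09% with the combination, 2.49% and 0.916% under misoprostol, 4.42% and 1.98% under dmPGE2, 6.39% and 3.76% under dmPGE2 without irradiation, 1.64% and 0.771% for irradiation alone, and 4.98% and 2.87% between the sexes. In stem cells it was 0.855% by DESeq2 and 0.0147% by edgeR under sulprostone, 1.8% and 0.494% under rivenprost, 2.22% and 0.545% with the combination, and 1.86% and 0.251% under misoprostol. All 52 group levels moved by less than 1 SD when CPM used the plain library total. Title numbers run in consecutive sets of one sex, but no label says that a set shares a litter, batch or day. With the set as a replicate block, added after the values were seen, no member's call changed, and Thbd stood at 3.61 under rivenprost, 3.25 with the combination, 3.07 under misoprostol, 2.66 under dmPGE2, 2.57 under dmPGE2 without irradiation and 2.13 under sulprostone (adjusted p = 0.168, edgeR). The block raised the genes called in stroma to 379 under rivenprost, 1342 with the combination, 353 under misoprostol and 1169 under dmPGE2. Deviations from group means correlated above 0.1 in 87 of 100 pairs of stroma libraries of one set and in 13 of 40 pairs in stem cells. Libraries of one set were thus mostly alike in stroma and mostly not in stem cells. These deviations still hold any difference between the sexes, which the libraries of a set share. Their median correlation was 0.384 within a stroma set and 0.0815 between stroma libraries of the same sex in other sets. Deviations were also taken from the means of group and sex. Of these, 63 of 100 stroma pairs of one set correlated above 0.1 (median 0.204), and 6 of 40 in stem cells (median -0.0185). Likeness within a stroma set thus remained with sex taken out, and its cause was not tested. The main fits have a term for sex and none for the set, so this likeness is not allowed for in them.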
